A study of Camelus dromedarius with 10 samples.

Results

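Prodynorphin (PDYN) is the precursor protein of the dynorphins, a family of opioid peptides, and the opioid receptors are the cell-surface receptors on which such peptides act. The genes described here are PDYN and the receptor genes OPRK1 (kappa), OPRM1 (mu), OPRD1 (delta) and OPRL1 (nociceptin receptor), 5 of the 22444 gene IDs in the count table. They were chosen by name, and each name was tied to an ID through the study's supplementary gene tables. All 5 had an ID, and all 5 passed the filter on low counts. RNA came from the rostral supraoptic nucleus (SON) on 1 side of the hypothalamus of male dromedary camels aged 4 to 5 years. The 5 control camels drank freely, and the 5 water-deprived (WD) camels, out of 8 that were kept so, had no water for 20 days. The punched tissue holds magnocellular neurones (MCNs) together with glia and vessels, so a lower level in it cannot separate fewer cells of a type from less RNA per cell.

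The neurohypophysial hormones vasopressin and oxytocin are made by MCNs, whose axons end in the posterior pituitary. In rodents, vasopressin MCNs pack dynorphin into the same vesicles as vasopressin and release both from their dendrites, where dynorphin acts back on kappa receptors and restrains firing. Mu receptors restrain oxytocin MCNs, and the nociceptin receptor, which binds nociceptin and not the classical opioids, also inhibits MCNs. All 4 receptors couple to inhibitory G proteins, which lower cAMP and open inwardly rectifying potassium channels.

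Between 1665098 and 8126641 read pairs were counted per library. A set of 5 gene IDs without a symbol took between 27.7% and 76.1% of them. Levels are given as CPM, read pairs per 1e+06 of a library size that TMM had adjusted, and 1 read pair was worth 1.20 CPM in control library 13 (CON13), 0.475 CPM in WD library 6 (WD6) and 0.0864 to 0.237 CPM in the other libraries. The receptor genes had few counts, so their levels were least precise in CON13 and WD6. No transcript lengths were used, and levels are therefore compared between camels and never between genes. Each log2 fold change compares WD with control in edgeR's quasi-likelihood F test, and p-values were adjusted over the 14432 genes tested, with a threshold of 0.05.

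PDYN rose in WD camels, OPRL1 was lower in every WD library but missed the threshold, and OPRK1, OPRM1 and OPRD1 overlapped between the groups. Thus 1 of the 5 genes was past the threshold, beside 0.499% of all genes tested (0.27% higher and 0.229% lower in WD). For 2 of the 5 the groups did not overlap, beside 2.62% of all genes tested (1.34% with WD higher and 1.27% with WD lower).

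**Figure D1:**
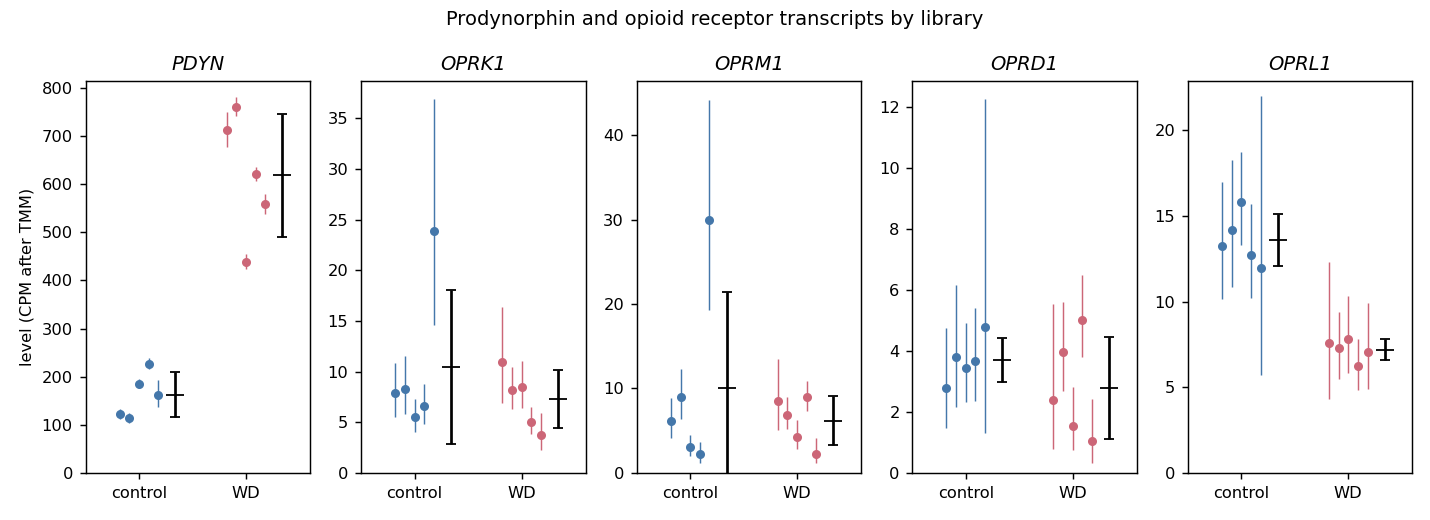
Level of each gene in CPM after TMM scaling (vertical axes, starting at 0) in the 5 control and 5 WD libraries, drawn from left to right as CON2, CON3, CON4, CON5 and CON13, then WD6, WD7, WD8, WD9 and WD15. Thin lines are exact Poisson 95% intervals of the count, and black bars are the group mean ± SD (the bar of OPRM1 in controls runs below 0 and is clipped there). PDYN lies higher and OPRL1 lower in all 5 WD libraries, while CON13 stands above the other controls for OPRK1 and OPRM1.

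The PDYN transcript (ENSCDRG00005011753) was measured with many counts, 24541 read pairs over the 10 libraries. In the control libraries CON2, CON3, CON4, CON5 and CON13 its level was 122, 114, 186, 227 and 163 CPM. In the WD libraries WD6, WD7, WD8, WD9 and WD15 it was 712, 761, 439, 621 and 559 CPM. The lowest WD library, WD8, lay well above the highest control library, CON5. Control camels had a mean of 162 ± 46.4 CPM (SD, n = 5), and WD camels one of 618 ± 127 CPM (SD, n = 5). This was a log2 fold change of 1.93 (standard error, SE, 0.22, 95% interval 1.46 to 2.39), a 3.80-fold rise with an interval of 2.76 to 5.25 (adjusted p = 0.000302, edgeR). PDYN held rank 4 of the 14432 genes by p-value and rank 12 by the size of the rise. It was past the threshold in all 21 alternative fits, with log2 fold changes from 1.80 to 2.09 and adjusted p-values of at most 0.0264.

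PDYN is also transcribed in hypothalamic neurones outside the SON, among them orexin neurones and the kisspeptin neurones of the arcuate nucleus. HCRT, the orexin precursor, was at 0.344 to 1.20 CPM in control and 0 to 0.765 CPM in WD libraries, 27 counts in all. TAC3, the neurokinin B precursor of the arcuate neurones, was at 0 to 7.17 CPM in control and 0.51 to 3.32 CPM in WD libraries. Each was the only usable marker of 3 listed for its cell type (ESR1, listed for the arcuate neurones, matched several IDs and was left out), and the highest library for both was CON13, on 1 read pair of HCRT and 6 of TAC3. The part of these neurones in the rise of PDYN was not tested. Of the 6 MCN markers listed, AVP, OXT and POU3F2 had no ID in the tables used and were not analysed. The summed level of the other 3 (SIM1, OTP and ARNT2, transcription factors that specify these neurones) was 379 to 530 CPM in control and 391 to 541 CPM in WD libraries. The log2 fold changes were -0.04 for SIM1, -0.58 for OTP and -0.03 for ARNT2, each with an adjusted p of at least 0.454 (edgeR).

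Of the other opioid precursors, PENK (proenkephalin) and PNOC (prepronociceptin) had an ID, and neither passed the threshold. PENK was at 13.02, 6.86, 5.74, 7.47 and 8.37 CPM in the control libraries, in the order given above for PDYN. In the WD libraries it was at 6.64, 10.3, 5.22, 15.9 and 3.54 CPM, so that the groups overlapped. Its log2 fold change was 0.06 (SE 0.37, 95% interval -0.72 to 0.84, adjusted p = 0.975, edgeR). PNOC, which encodes the ligand of the OPRL1 product, had 134 counts and lay between 1.26 and 7.17 CPM in control and between 1.30 and 6.64 CPM in WD libraries. Its log2 fold change of -0.43 had a wide 95% interval of -1.67 to 0.81 (adjusted p = 0.887, edgeR).

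The ratio of 2 genes within a library does not depend on the scaling of that library, so the change of PDYN was also set against each precursor directly. The log2 ratio of PDYN to PENK counts averaged 4.27 ± 0.726 (SD, n = 5) for controls and 6.36 ± 0.726 (SD, n = 5) after WD. All WD ratios were above all control ratios, and the difference of 2.09 was larger than the spread between camels (two-sided exact permutation test, p = 0.00794, the smallest that 5 against 5 camels allow, and 0.0159 adjusted over the 2 ratios). The log2 ratio of PDYN to PNOC counts averaged 5.58 ± 1.29 (SD, n = 5) for controls and 8.02 ± 0.826 (SD, n = 5) after WD. These groups overlapped, with WD6 at 6.69 below CON4 at 7.14, and the difference was 2.44 (two-sided exact permutation test, p = 0.0238, and 0.0238 after adjustment). The share of PDYN among these transcripts was therefore higher in WD camels against both precursors.

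**Figure D2:**
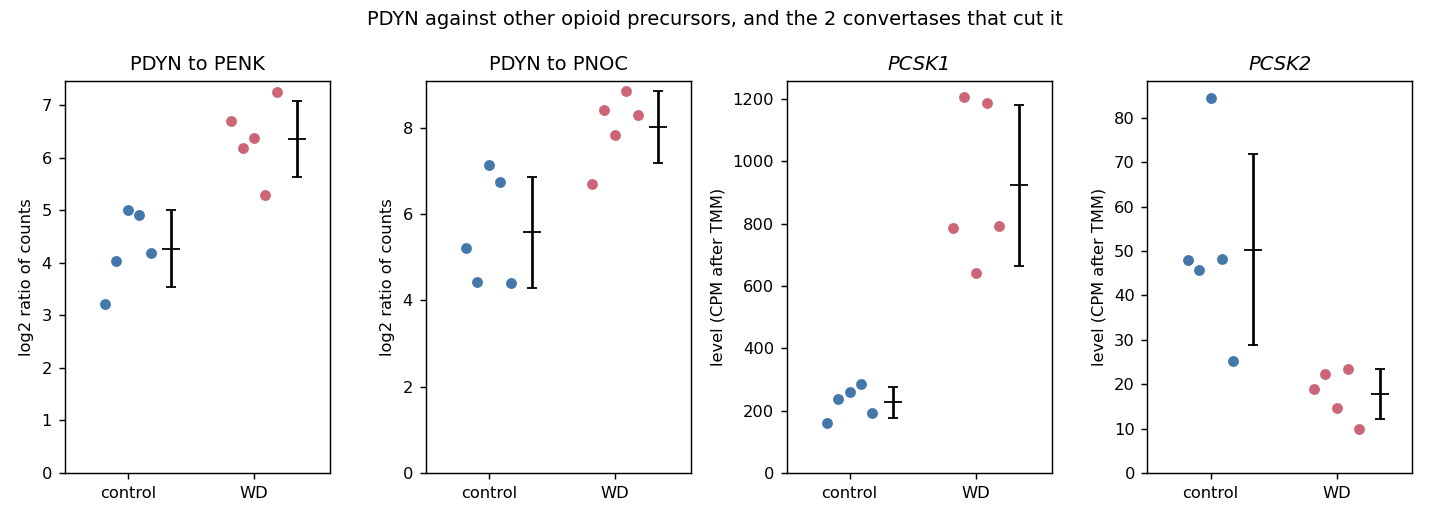
The first 2 panels show the log2 ratio of PDYN to PENK and to PNOC counts by library, and the others the level of PCSK1 and PCSK2 in CPM, with the group mean ± SD as black bars. The PDYN to PENK ratio and PCSK1 are higher, and PCSK2 is lower, in all 5 WD libraries.

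Prodynorphin is cut by the prohormone convertases encoded by PCSK1, which makes large intermediates, and PCSK2, which cuts on to the short dynorphins, and its fragments are trimmed by carboxypeptidase E (CPE). These convertases moved in opposite directions. PCSK1 was at 161, 237, 259, 285 and 194 CPM in the control libraries and at 785, 1206, 642, 1187 and 794 CPM in the WD libraries, a log2 fold change of 2.02 (adjusted p = 0.000249, edgeR). PCSK2 was at 48.0, 45.7, 84.6, 48.2 and 25.1 CPM in the control libraries and at 19.0, 22.2, 14.6, 23.4 and 9.79 CPM in the WD libraries. Every WD library was below every control library for PCSK2, although CON13 came close to WD9. PCSK2 had a log2 fold change of -1.53 (SE 0.28, adjusted p = 0.0144, edgeR), and its adjusted p was 0.0538 without WD8 and 0.724 with library totals in place of TMM. CPE had a log2 fold change of 0.34 (95% interval -0.13 to 0.80, adjusted p = 0.694, edgeR) with overlapping groups. Of the 7 processing genes listed, 6 had an ID and 5 were tested, with PCSK1 higher (beside 0.27% of all genes), PCSK2 lower (beside 0.229%), and CPE, PCSK6 and PCSK1N (an inhibitor of the PCSK1 product) not past the threshold.

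Among the factors known to act at the PDYN gene, 2 of the 7 tested rose, beside 0.27% of all genes. No other had an unadjusted p under 0.05, which 9.31% of all genes reached. The list was chosen with earlier results of these data known, so this count is not read as a result. CREM, a cAMP-responsive factor, was at 8.11, 6.39, 5.85, 6.73 and 1.20 CPM in the control libraries, the last of these, CON13, resting on 1 read pair. It was at 24.7, 22.4, 15.1, 25.7 and 19.4 CPM in the WD libraries (log2 fold change 1.77, SE 0.27, adjusted p = 0.00313, edgeR). FOS, a subunit of AP-1 and a marker of neuronal activity, was at 14.5, 15.6, 16.4, 11.7 and 16.7 CPM in the control libraries and at 39.9, 26.5, 37.6, 56.5 and 45.2 CPM in the WD libraries. For FOS the log2 fold change was 1.48 (SE 0.22, adjusted p of 0.00313 by edgeR), and the groups of both genes were apart. With library totals in place of TMM both missed the threshold (adjusted p of 0.155 for CREM and 0.221 for FOS, edgeR). KCNIP3, whose product DREAM represses PDYN, had a log2 fold change of -0.05 (95% interval -0.53 to 0.43, adjusted p = 0.969, edgeR). CREB1, ATF1, FOSB and JUN had log2 fold changes between 0.17 and 0.33, none past the threshold.

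The kappa receptor gene OPRK1 (ENSCDRG00005019845), which encodes the main receptor of dynorphin, had 403 counts. Its level was 7.90, 8.28, 5.51, 6.59 and 23.9 CPM in the control libraries and 10.9, 8.16, 8.45, 5.01 and 3.75 CPM in the WD libraries. CON13 lay above all other libraries, at 3.38 times the mean of the other 4 controls (7.07 ± 1.27 CPM, SD), on 20 read pairs (exact Poisson 95% interval 14.6 to 36.9 CPM). The remaining libraries of both groups overlapped. OPRK1 had a log2 fold change of -0.34 (SE 0.39, 95% interval -1.16 to 0.48, adjusted p = 0.850, edgeR). Without CON13 it was 0.0038 (adjusted p = 0.999, edgeR), and without CON13 and WD6 together it was -0.15 (adjusted p = 0.875, edgeR). The size and sign of this value therefore depended on the libraries kept. With all libraries the interval runs from a fold of 0.447 to 1.39.

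The mu receptor gene OPRM1 (ENSCDRG00005019256), on which enkephalin and endorphin act, had 349 counts. It was at 6.19, 8.99, 3.10, 2.20 and 29.9 CPM in the control libraries and at 8.54, 6.89, 4.30, 8.99 and 2.29 CPM in the WD libraries. CON13 was again the highest, at 5.84 times the mean of the other controls, on 25 read pairs (exact Poisson 95% interval 19.3 to 44.1 CPM). CON13 was the highest control library for 30.2% and the lowest for 33.0% of all genes tested, where an even share among 5 libraries is 20%. OPRM1 had a log2 fold change of -0.35 (SE 0.57, 95% interval -1.55 to 0.85, adjusted p = 0.912, edgeR). It turned to 0.30 without CON13, to 0.20 without CON13 and WD6 together, and to 0.11 with depth group as a covariate. No direction can be given for OPRM1 from these libraries.

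Markers of the suprachiasmatic nucleus, which borders the SON (VIP, GRP and PROK2), summed to 9.57 CPM in CON13 and to 0.459 to 2.84 CPM in the other control libraries, beside 0 to 1.79 CPM in WD libraries. The sum in CON13 rested on 8 read pairs, and VIP alone was at 2.39 CPM there and at 2.37 CPM in CON3. Their part in the levels of OPRK1 and OPRM1 in CON13 was not tested.

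The delta receptor gene OPRD1 (ENSCDRG00005006966), the preferred receptor of enkephalin, had 197 counts, the fewest of the 5 genes. Its level was 2.77, 3.78, 3.44, 3.66 and 4.78 CPM in the control libraries and 2.37, 3.95, 1.54, 5.01 and 1.04 CPM in the WD libraries. The WD libraries spread to both sides of the controls, from WD15, the lowest, to WD9, the highest. OPRD1 had a log2 fold change of -0.31 (SE 0.47, 95% interval -1.30 to 0.68, adjusted p = 0.903, edgeR). It rested on 4 to 58 read pairs per library.

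The nociceptin receptor gene OPRL1 (ENSCDRG00005012998) had 587 counts and was the receptor with the least spread within a group. It was at 13.2, 14.2, 15.8, 12.7 and 11.96 CPM in the control libraries and at 7.59, 7.27, 7.84, 6.22 and 7.08 CPM in the WD libraries. Every WD library lay below every control library. Control camels averaged 13.6 ± 1.49 CPM (SD, n = 5) and WD camels 7.20 ± 0.619 CPM (SD, n = 5). OPRL1 thus had a log2 fold change of -0.94 (SE 0.22, 95% interval -1.39 to -0.49), a fold of 0.521 with an interval of 0.380 to 0.713. Its adjusted p of 0.0683 (edgeR) missed the threshold, with rank 83 by p-value where 72 genes passed. DESeq2's Wald test on the same counts put it past the threshold (log2 fold change -0.96, adjusted p = 0.0055), beside 1.27% of the genes that DESeq2 tested, 0.632% of them lower in WD. The edgeR fit put it past the threshold when depth group was a covariate (adjusted p = 0.0299, beside 1.55% of all genes), without WD6 (0.0374) and without CON13 and WD6 together (0.0362). Its size lay between -1.004 and -0.81 in all 21 alternative fits, while the adjusted p ranged from 0.0055 to 0.99998 and was highest with library totals in place of TMM.

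**Figure D3:**
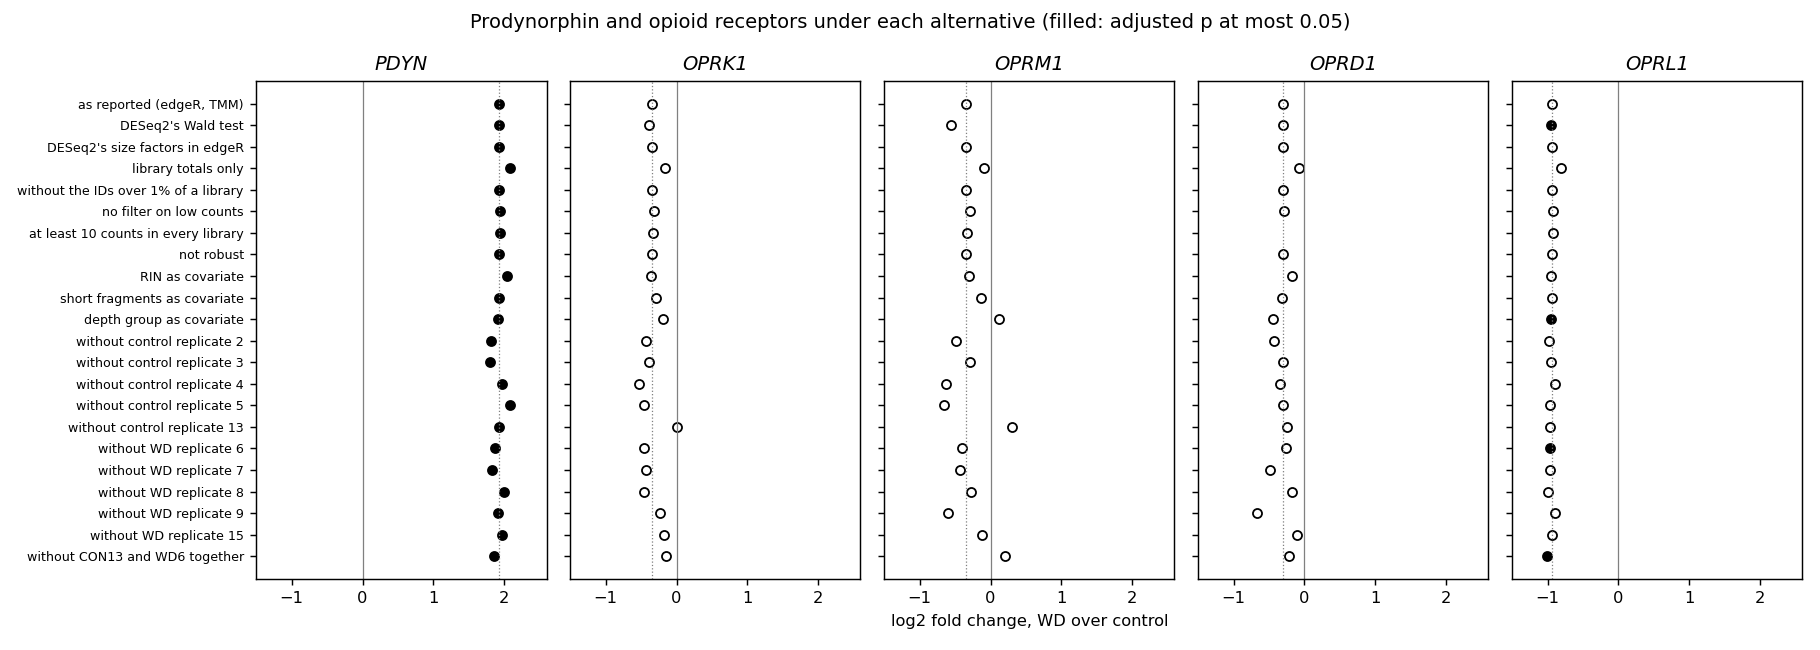
The log2 fold change of WD over control (horizontal axes) for each gene as reported and under every alternative (rows), filled where the adjusted p is at most 0.05. The dotted line marks the reported value and the grey line marks 0. PDYN is filled throughout, OPRL1 keeps its size and is filled in 4 alternatives, OPRM1 crosses 0 in 3, and OPRK1 reaches 0 without CON13. OPRD1 has no value where 10 counts were required in every library.

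Levels of glial and vessel markers are given beside these results. Of the 9 microglial markers listed, 8 were tested, but 6 of these had their ID only from a shortened table ordered by p-value, which favours genes that changed, so their count is not read as a result. Their summed level was 354 to 552 CPM in control and 459 to 1755 CPM in WD libraries, the highest being WD15 and the next 885 CPM in WD8. C1QB (log2 fold change 1.35, adjusted p = 0.0707, edgeR) and C1QC (1.48, adjusted p = 0.0683) missed the threshold with edgeR and passed it with DESeq2 (adjusted p of 0.0053 and 0.0043). C1QA was past it with edgeR (log2 fold change 1.63, adjusted p = 0.0232), and when libraries were dropped singly 6 of the 10 fits called it, the highest adjusted p being 0.133. The 2 astrocyte markers with an ID of the 8 listed, GJA1 and ALDH1L1, had it from the same shortened table and did not pass the threshold (adjusted p of at least 0.390, edgeR). They summed to 70.5 to 90.4 CPM in control and 83.5 to 148 CPM in WD libraries. The summed level was 50.6 to 117 CPM in control and 39.2 to 94.0 CPM in WD libraries for 3 oligodendrocyte markers, and 215 to 395 CPM and 224 to 481 CPM for 4 endothelial markers. Their part in the lower level of OPRL1 was not tested, nor their part in the rise of PDYN.

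Downstream of the receptors, none of the 11 genes tested for signalling by inhibitory G proteins passed the threshold, nor did any of the 4 receptor kinases tested (GRK2, GRK3, GRK5 and GRK6). Of the 18 signalling genes listed 11 had an ID, 9 of them adenylyl cyclases, and of the 7 desensitisation genes 4 had one. The other inhibitory G protein and channel subunits, the arrestins and RGS4 were not analysed here. At an unadjusted p under 0.05, which 9.31% of all genes reached, there were 2 signalling genes (ADCY8 and KCNJ5) and 0 kinases, and DESeq2, which called 1.27% of its genes, called 1 (ADCY8) and 0. GNAZ and KCNJ5 had their IDs only from a shortened table ordered by p-value, which favours genes that changed. ADCY8, a calcium-stimulated adenylyl cyclase, came nearest. It was at 28.0, 30.5, 42.0, 38.2 and 28.7 CPM in the control libraries and at 51.7, 49.5, 59.5, 52.4 and 65.2 CPM in the WD libraries, with no overlap. ADCY8 had a log2 fold change of 0.71 (SE 0.18, adjusted p = 0.102, edgeR), and it was past the threshold by DESeq2 (adjusted p = 0.0113) and with depth group as a covariate. The other adenylyl cyclase genes had log2 fold changes between -0.35 (ADCY6) and 0.40 (ADCY7). KCNJ5, a subunit of the potassium channel that opioid receptors open, was at 4.73 to 16.7 CPM in control and 14.2 to 25.2 CPM in WD libraries (log2 fold change 0.99, adjusted p = 0.200, edgeR). The groups of KCNJ5 overlapped through CON13.

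None of the 8 tested peptidases that can degrade opioid peptides passed the threshold with edgeR or DESeq2, and 1 of the 8 had an unadjusted p under 0.05, near the share of 9.31% over all genes. This was NLN (neurolysin, which cleaves dynorphins among other peptides), with a log2 fold change of -0.52 (95% interval -0.91 to -0.13, adjusted p = 0.348, edgeR). MME (neprilysin), with 281 counts, had 0.43, and values ran from -0.63 (ANPEP) to 0.47 (ECE1). NLN had its ID only from a shortened table ordered by p-value, which favours genes that changed.

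Over all pathway lists, 38 of the 52 genes named had an ID and 37 were tested, with 3 higher (beside 0.27% of all genes) and 1 lower (beside 0.229%). Their median log2 fold change was 0.11, beside 0.02 over all genes tested. For 5 of the 37 the groups did not overlap, beside 2.62% of all genes. The lists were chosen with earlier results of these data known, so these counts are not read as a result. All 4 genes past the threshold were named in a table of gene classes that is not ordered by p-value, whereas 3 of the 38 IDs (GNAZ, KCNJ5 and NLN) were named only by a shortened table ordered by p-value, which favours genes that changed.

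**Figure D4:**
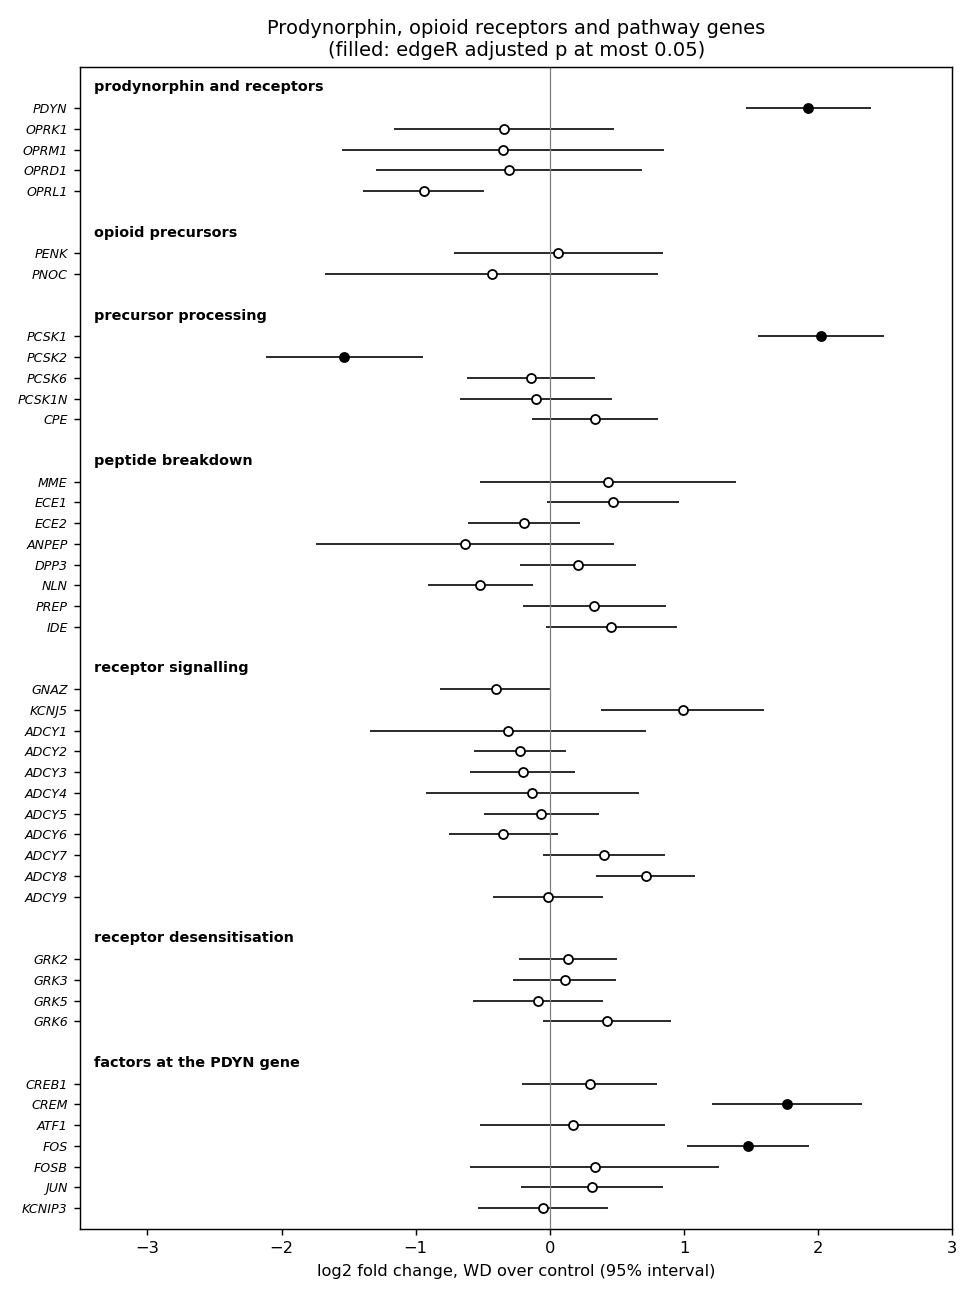
Log2 fold change of WD over control with its 95% interval (horizontal axis) for the 5 genes and for 37 genes of the opioid pathway lists, filled where edgeR's adjusted p is at most 0.05. PDYN, PCSK1, CREM and FOS lie to the right of 0 and PCSK2 to the left, while the intervals of OPRK1, OPRM1 and OPRD1 span 0 and that of OPRL1 does not.

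The genes whose profile over the 10 libraries was nearest to PDYN were sought by the mean absolute difference of log2 CPM after centring each gene on its own mean. They were PCSK1 (0.216), GLA (0.292), GP2 (0.316), CITED1 (0.329) and TENT5A (0.345), against a median of 0.997 over all genes tested. GLA encodes the lysosomal enzyme alpha-galactosidase A, CITED1 a transcriptional co-activator and TENT5A a poly(A) polymerase. Since they were picked for a profile like that of PDYN, whose groups do not overlap, it is no separate result that all 5 were higher in every WD library than in any control library. They had log2 fold changes from 1.34 (TENT5A) to 2.15 (CITED1). WD8 was the lowest WD library for PDYN, PCSK1, CITED1 and TENT5A, WD6 for GLA and WD9 for GP2.

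The genes nearest to OPRL1 were MYT1L (0.151), PDZD4 (0.158), SEMA5A (0.172), MINAR1 (0.179) and PAMR1 (0.183), against a median of 0.565. MYT1L encodes a transcription factor that maintains neuronal identity and SEMA5A an axon guidance protein. All 5 were lower in every WD library than in any control library, which again follows largely from how they were picked. SEMA5A, at 181 ± 20.6 CPM (SD, n = 5) in control and 97.6 ± 19.2 CPM (SD, n = 5) in WD camels, was past the threshold (log2 fold change -0.90, adjusted p = 0.0188, edgeR). The other 4 had log2 fold changes from -0.75 (PAMR1) to -0.63 (MINAR1) and adjusted p-values from 0.0963 to 0.302 (edgeR). Genes can be named only where a supplementary table gives a symbol, and that holds for all of the nearest genes here.

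**Figure D5:**
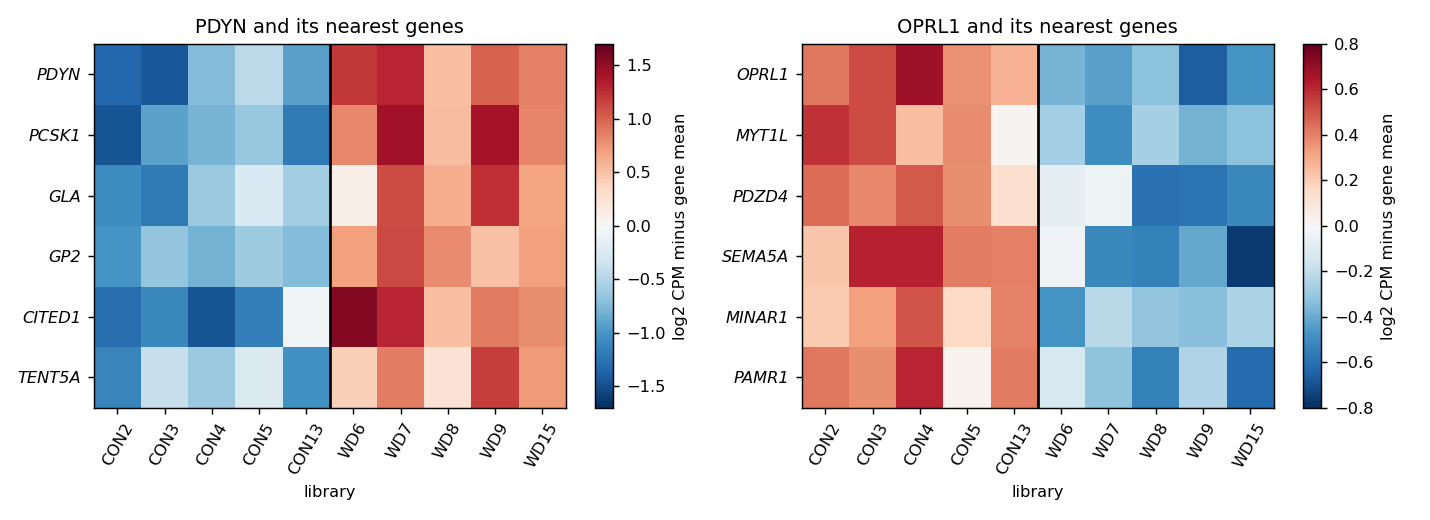
Log2 CPM minus the gene's mean over the 10 libraries (colour) for PDYN and OPRL1 and the 5 genes nearest to each (rows), by library (columns, with controls left of the black line). PDYN and its 5 nearest genes are above their mean in all WD libraries, and OPRL1 and its 5 nearest genes are below theirs.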

How the data were processed

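Stranded libraries without ribosomal RNA, made from the rostral SON of 5 camels per condition, were sequenced from both ends. The authors merged and trimmed the reads, used STAR 2.5.3a for alignment to Camdro2 and counted read pairs per gene with FeatureCounts. They deposited raw counts per gene for each library, and normalized values (a signal), in which counts are divided by DESeq2 size factors. The signal served here only to weigh 1 read pair per library in normalized counts, and these weights are not printed. The CPM that 1 read pair was worth came from the raw counts and TMM. The strand setting and the treatment of shared read pairs are not given in the sources used here. Columns with the authors' own comparisons in the supplementary tables were not used, and these tables served to pair 4351 of 22444 IDs with symbols and gave the RNA integrity and fragment length of each library for covariates.

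Counts were tested with edgeR 4.0.16 in R 4.3.3 (robust quasi-likelihood F test, TMM, filterByExpr by group, Benjamini-Hochberg over 14432 genes). The standard error is the log2 fold change over the square root of F. Log2 CPM used a prior count of 0.5, and the same was added to counts in ratios. Intervals of single counts are exact Poisson ones and cover counting error only. To look for a library deposited more than once, counts were compared within groups, and no pair agreed within counting noise (chi-square over degrees of freedom at least 8.03). The edgeR fit was tested on simulated counts. Depth group splits the libraries into the 5 with more and the 5 with fewer counts beyond the dominant IDs.

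Named were all 5 genes, PENK, PNOC, PCSK1, PCSK2, CPE, list genes past the threshold, the extremes of ranges, and the 5 genes nearest to PDYN and to OPRL1. ADCY8, KCNJ5, NLN, MME, KCNIP3 and the cell type markers were named beside these, ADCY8, KCNJ5 and NLN after their values were seen. The genes and lists were chosen with earlier results of these data known. Alternatives were DESeq2 1.42.0, other scalings, filters and covariates (RNA integrity, fragments under 300 bp, depth group), a fit that is not robust, and each library left out. Leaving out CON13 and WD6 together was added after seeing the data. Python 3.11.15 with scipy 1.17.1 and matplotlib 3.10.9 was used.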

Additional observations from a re-analysis of the deposited data

Results flagged for a closer look

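In 24 gene groups checked (12 genes in each condition), 2 held a library far from the other 4, chance alone gives about 1 such group in 20, and over all genes tested 10.9% of the groups held one. OPRK1 was at 23.9 CPM in CON13, the highest control library, on 20 read pairs, with the other controls at 5.51 to 8.28 CPM. CREM was at 1.20 CPM in CON13, the lowest control library, on 1 read pair, with the other controls at 5.85 to 8.11 CPM. Over all genes tested, CON13 was past the same critical value as the highest control library for 1.46% and as the lowest for 5.10%. OPRM1 in CON13 was not past it. CREM kept its call without CON13.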

How the results depend on the processing

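PDYN was past the threshold in all 21 alternative fits and OPRK1, OPRM1 and OPRD1 in none of theirs, while OPRL1 passed it in 4. The number of genes past the threshold, 72 as reported, was 209 with DESeq2's Wald test, 224 with depth group as a covariate, 10 with library totals only and 40 to 102 with each library left out, lowest without CON3 (40) and also low without CON5 (42). With library totals only, the median log2 fold change of the tested genes moved from 0.02 to 0.16, and 1 of the 4 pathway genes (PCSK1) was called. PCSK2 (-1.41), CREM (1.88) and FOS (1.62) then missed the threshold, as did PCSK2 without WD8 (-1.49). With each library left out, 3 to 4 pathway genes were called, and 5 with DESeq2 and with depth group, both adding ADCY8. OPRL1 was past the threshold at -0.96 with DESeq2, -0.95 with depth group and -1.004 without CON13 and WD6 together, and it lay between -1.001 and -0.89 with each library left out, past the threshold without WD6. OPRM1 turned to 0.11 with depth group and to 0.20 without CON13 and WD6 together, and ranged from -0.66 to 0.30 with each library left out. OPRK1 ranged from -0.53 to 0.0038 with each library left out and was -0.15 without CON13 and WD6 together. PENK turned to -0.010 with depth group and ranged from -0.35 to 0.28, with negative values without CON3 (-0.02), CON4 (-0.08), WD7 (-0.04) and WD9 (-0.35). The cause of these changes was not tested. Both ratios of PDYN kept their side of the threshold under other pseudocounts and when a library was left out (exact permutation p at most 0.0476). No paired analysis was possible because control and WD libraries share no replicate number. The 95% intervals of OPRK1, OPRM1, OPRD1, PENK and PNOC, with 134 to 528 counts each, include changes in both directions, and counting error was not separated from the spread between camels.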
